A study of Danio rerio with 8 samples.

Results

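The 10 genes described here encode the oxygen-sensing machinery of the zebrafish heart and its best known growth factor output. They are 5 HIF alpha subunit genes (hif1aa, hif1ab, hif1al, epas1a and epas1b), 2 HIF prolyl hydroxylase genes (egln2 and egln3), the ubiquitin ligase gene vhl, and the vascular endothelial growth factor genes vegfaa and vegfab. They were chosen by symbol from the authors' table of expression values and matched by Ensembl identifier to the deposited read counts, and all 10 were found among its 31953 genes. Bulk RNA sequencing had measured pooled zebrafish hearts in 8 libraries, which form 4 groups of 2. Young hearts came from untreated larvae 3 days old (72 hours post fertilization), with about 500 hearts in each library. The other groups are adult hearts of fish about 6 months old, pooled 4 to 6 to a library. Control adults were not injured and are labelled 0 days with the vehicle, 0.1% dimethyl sulfoxide (DMSO), though the protocol also has the 0-day hearts taken before metronidazole, so whether they had the 48 hours of vehicle is uncertain. The 3 dpi and 7 dpi groups (days post injury) had been given 5 mM metronidazole in 0.1% DMSO for 48 hours, which kills cells that make a bacterial nitroreductase. In the line vmhc:mCherry-NTR, whose allele is written Tg(vmhc:mCherry-Eco.NfsB), these are ventricular cardiomyocytes, since the promoter of the ventricular myosin gene vmhc drives the enzyme. The labels also list AB wild type fish and the lines hsWnt8:GFP and hsDKK1:GFP, and do not say which line gave which library. No group had metronidazole without ablation, so drug and ablation cannot be told apart. Nothing says that the pools of a group came from separate experiments, so p-values measure only the spread between pools.

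In the presence of oxygen, Egln enzymes hydroxylate prolines of HIF alpha proteins, Vhl binds the hydroxylated form, and a ubiquitin ligase built on Vhl marks it for destruction. When oxygen is short, HIF alpha escapes, pairs with Arnt and switches on genes of glycolysis, iron handling and vessel growth, Vegfa among them. Zebrafish keep duplicated copies of several of these genes, so mammalian HIF1A has the counterparts hif1aa and hif1ab, EPAS1 (HIF-2 alpha) has epas1a and epas1b, and VEGFA has vegfaa and vegfab. Since oxygen acts mainly on HIF alpha protein, the messenger RNA levels given here measure the supply of the machinery and not its activity. Hypoxia signalling and Vegfaa are both known from work on zebrafish heart regeneration.

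Library totals ranged from 10868019 to 26628897 counts. Mitochondrially encoded genes took 7.59% and 7.7% of the counts in young hearts, 14.9% and 15.3% in control hearts, 7.14% and 9.54% at 3 dpi and 24.7% and 28.2% at 7 dpi. Levels are CPM, counts brought to a common library size, scaled by trimmed means of M-values (TMM), which compares libraries through their bulk of genes. The TMM factors were 0.418 and 0.453 at 7 dpi and 0.956 to 1.6 in the other libraries, so the scaling matters most at 7 dpi. Scaling by library totals in place of TMM moves the median log2 fold change of all genes by -1.24 for 7 dpi against control, by 0.44 for 3 dpi against control and by 0.60 for young against control. Values under library totals are therefore given wherever they end a call. Since the totals move most genes down at 7 dpi relative to the other groups, and up at 3 dpi and in young hearts relative to control, a change in the direction of that shift is made larger by it, and its passing there says nothing more about the gene. In the summed level of 11 cardiomyocyte markers, young libraries had 4376 and 4267 CPM, control libraries 57680 and 66590 CPM, 3 dpi libraries 19570 and 36840 CPM and 7 dpi libraries 156800 and 117200 CPM, and none of these markers was at 0 in any library. The sums do not show how each marker moved. By edgeR under TMM, 1 of the 11 was lower and 1 higher at 3 dpi than in control hearts, beside 15.6% of all tested genes called. At 7 dpi 4 were lower and 4 higher, beside 38.7% of all tested genes called. In young hearts 10 were lower and 1 higher, beside 27.6% of all tested genes lower and 32.6% higher. The higher sum at 7 dpi depended on the scaling. Under library totals it was 65470 and 53040 CPM at 7 dpi, against 64770 and 63630 CPM in control hearts. The sum of 20 endothelial markers was 828.5 and 914.9 CPM in young hearts, 2038 and 1763 CPM in control hearts, 2037 and 2160 CPM at 3 dpi and 1843 and 1725 CPM at 7 dpi, again with none at 0. Under library totals it was 769.4 and 780.3 CPM at 7 dpi, against 2288 and 1684 CPM in control hearts. At 7 dpi against control 5 of the 20 rose and 3 fell under TMM. Under library totals 0 rose and 14 fell, where 57.1% of all genes fell. In a list of genes of lens, gut, skeletal muscle and other organs, which was written after the counts had been seen, 17 of 22 were higher in both young libraries than in every adult library, as were 32.4% of all tested genes. The sum of that list was 4201 and 3846 CPM in young hearts, 2982 and 4002 CPM in control hearts, 780.5 and 1324 CPM at 3 dpi and 11280 and 8585 CPM at 7 dpi. Most of the adult sums came from 1 gene, ckma, with 2797 and 3583 CPM in control hearts and 9116 and 7822 CPM at 7 dpi. In young hearts ckma had 578.3 and 604.9 CPM. The sum therefore does not show where the other genes of the list were high. Macrophage markers summed to 645.6 and 683.7 CPM in young hearts. Under TMM 17 of 19 were lower there than in control hearts, beside 27.6% of all tested genes. Likewise 17 of 19 were lower than at 3 dpi, beside 25.3%. Erythroid markers summed to 533.9 and 463.4 CPM in young hearts and 5497 and 14830 CPM in control hearts. Of the 16 tested, 10 were lower and 5 higher in young than in control hearts under TMM, so the sum does not show how each moved. The erythroid sums were 3039 and 3881 CPM at 3 dpi and 18910 and 47520 CPM at 7 dpi. Under library totals the erythroid sums were 7895 and 21500 CPM at 7 dpi, against 6172 and 14170 CPM in control hearts. The part of these differences in cell and tissue makeup in the results below was not tested, and in pooled tissue fewer cells of a type and less RNA per cell cannot be told apart. The gene vmhc rose at 3 dpi, with 798.1 CPM against 210.7 CPM in control hearts (log2 fold change 1.92, edgeR quasi-likelihood test, adjusted p = 0.00437).

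**Figure D1:**
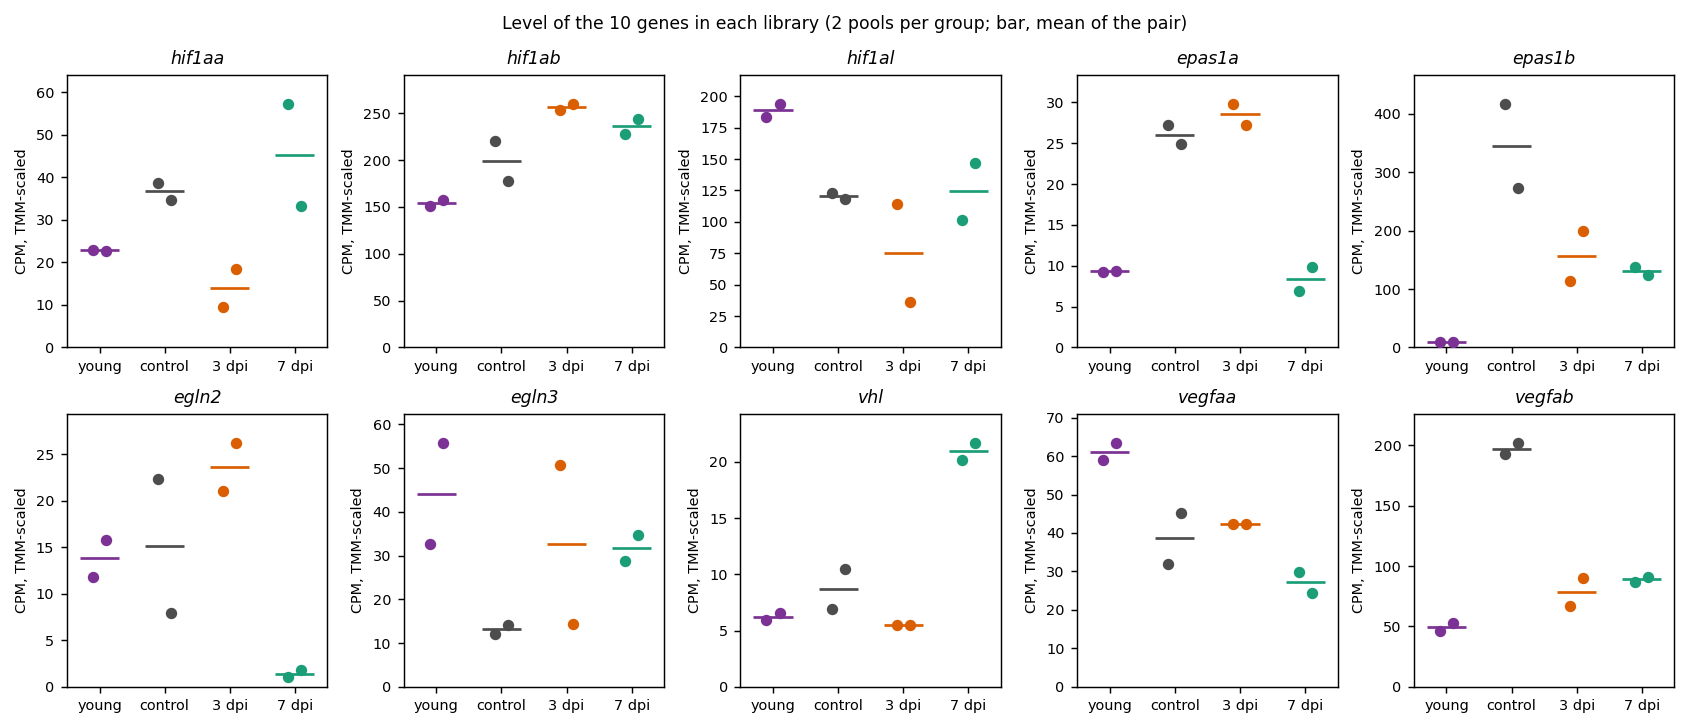
Level of each of the 10 genes in every library, in TMM-scaled CPM, with 1 point per pool and a bar at the mean of the pair for young, control, 3 dpi and 7 dpi hearts. epas1b lies at 9.22 and 9.93 CPM in young hearts and at 417 and 274 CPM in control hearts, and egln2 lies at 1.01 and 1.83 CPM at 7 dpi.

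All 10 genes passed the filter on low counts and were tested in 1 fit over the 8 libraries. At 3 dpi against control, 3 of the 10 fell and 0 rose, where 6.55% of the 19330 tested genes fell and 9.05% rose. At 7 dpi 4 fell and 1 rose against control, beside 20.0% and 18.7% of all tested genes. Between the injured groups 3 fell and 2 rose at 7 dpi relative to 3 dpi, beside 28.1% and 22.8%. In young hearts against control, 3 were lower and 2 higher, beside 27.6% and 32.6%. In young hearts against 3 dpi, 4 were lower and 1 higher, beside 25.3% and 28.7%, and against 7 dpi 5 were lower and 2 higher, beside 29.2% and 39.3%. Counted in either direction, the background was 15.6% for 3 dpi against control, 38.7% for 7 dpi against control, 50.9% for 7 dpi against 3 dpi, 60.2% for young against control, 54.1% for young against 3 dpi and 68.5% for young against 7 dpi. In the 5 comparisons other than 3 dpi against control, the share of the 10 genes that was called lay near that of all genes and is no result about these genes. The 3 calls at 3 dpi against control are too few to be read as a result about the set. Of these, hif1aa and epas1b were lost under library totals. Under library totals 2 rose and 1 fell at 3 dpi against control, beside 18.2% and 2.78% of all genes. The 7 dpi libraries then had 0 higher and 8 lower than control, beside 3.77% and 57.1%, and 0 higher and 7 lower than 3 dpi, beside 4.47% and 67.6%. Young hearts had 3 higher and 3 lower than control (44.7% and 17.5%), 3 higher and 2 lower than 3 dpi (32.0% and 21.4%), and 8 higher and 1 lower than 7 dpi (71.1% and 9.46%). The libraries of the 2 groups did not overlap for 8 genes at 3 dpi against control, 8 at 7 dpi against control, 6 at 7 dpi against 3 dpi, and 9, 9 and 8 in young hearts against control, 3 dpi and 7 dpi. Of all tested genes, 56.7%, 68.3%, 73.1%, 83.7%, 83.2% and 87.0% did not overlap in the same 6 comparisons. The comparisons with control share the 2 control libraries. The genes that carried the calls were epas1b, vegfab, epas1a, egln2, hif1aa, vhl and vegfaa in the adults, with egln3 and vegfaa among those higher in young hearts.

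**Figure D2:**
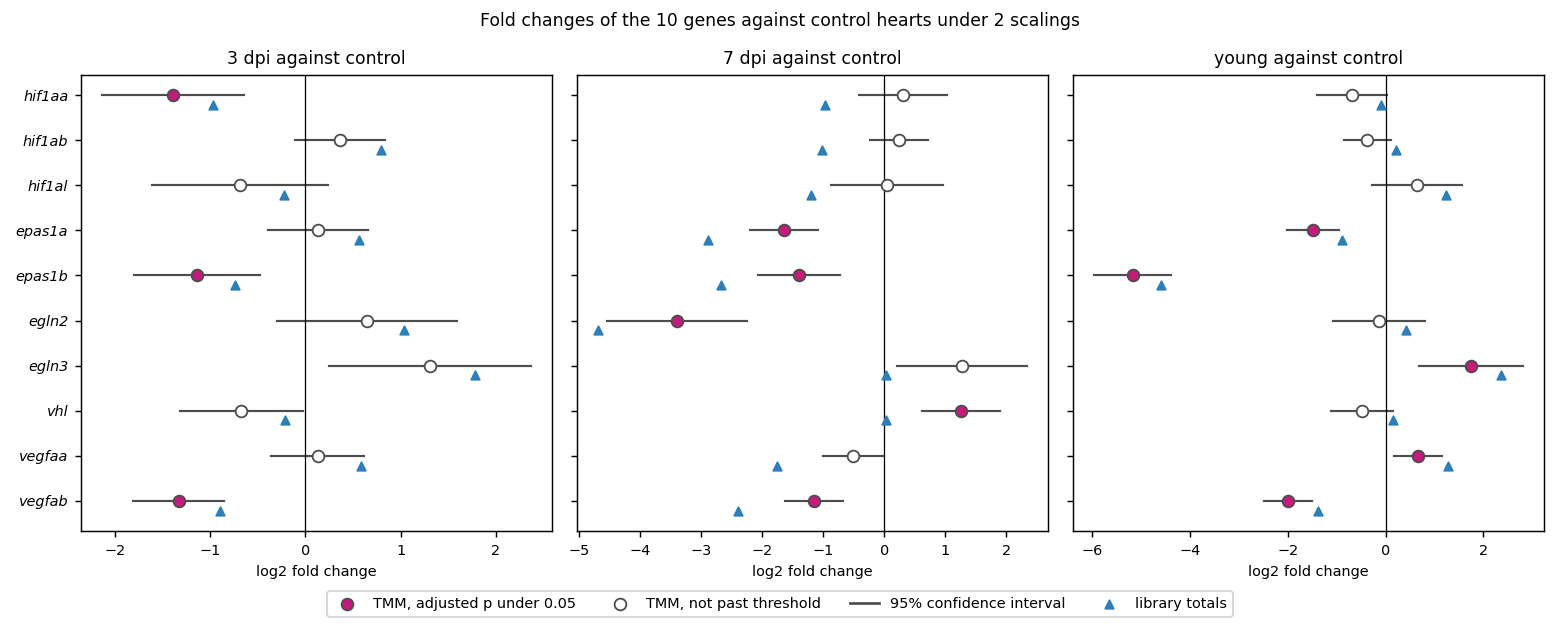
Log2 fold changes of the 10 genes for 3 dpi, 7 dpi and young hearts against control, as circles with 95% confidence intervals under TMM scaling (filled where the adjusted p is under 0.05) and as triangles under library totals. vegfab and epas1b lie below 0 in all 3 comparisons and under both scalings.

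Among the HIF alpha genes, epas1b varied most, with a ratio of 36.1 between its highest and lowest group mean. It had 9.22 and 9.93 CPM in young hearts, 417 and 274 CPM in control hearts, 114 and 199.97 CPM at 3 dpi and 138 and 124 CPM at 7 dpi. Young libraries were lowest, control libraries highest, and the 3 dpi and 7 dpi libraries overlapped between them. The young level was lower than control by a log2 fold change of -5.17 ± 0.35 (SE, n = 2 and 2, edgeR quasi-likelihood test, adjusted p = 1.91e-06), and 2.57% of tested genes lay further down. It was also lower than at 3 dpi (log2 fold change -4.04, adjusted p = 6.73e-06 by the same test) and than at 7 dpi (-3.78, adjusted p = 5.52e-06). All 3 differences of the young hearts passed under library totals as well. The 7 dpi level was lower than control (-1.40 ± 0.30, adjusted p = 0.00501). The fall at 3 dpi (-1.14 ± 0.30, adjusted p = 0.0284 by edgeR) was less firm: the adjusted p was 0.124 under library totals, 0.114 without control library 1, 0.193 without 3 dpi library 1 and 0.0866 with only the 2 groups in the fit.

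The other counterpart of mammalian EPAS1, epas1a, followed a different course after injury. Its level was 9.22 and 9.41 CPM in young hearts, 27.2 and 24.9 CPM in control hearts, 29.8 and 27.3 CPM at 3 dpi and 6.85 and 9.88 CPM at 7 dpi. Young and 7 dpi libraries overlapped at the low level, and control and 3 dpi libraries lay together at the high one. The 3 dpi and control levels gave a log2 difference of 0.13 with a 95% interval of -0.39 to 0.66 (adjusted p = 0.761, edgeR quasi-likelihood test). At 7 dpi epas1a fell against control (-1.64 ± 0.25, adjusted p = 0.000986) and against 3 dpi (-1.77 ± 0.25, adjusted p = 0.000291). It was also lower in young hearts than in control hearts (-1.48 ± 0.24, adjusted p = 0.000443) and than at 3 dpi (-1.62, adjusted p = 0.000319), and both of these calls held under library totals. Young against 7 dpi depended on the scaling, with 0.15 (adjusted p = 0.599) under TMM and 2.00 (adjusted p = 0.000133) under library totals.

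The gene hif1aa had 22.9 and 22.8 CPM in young hearts, 38.8 and 34.7 CPM in control hearts, 9.5 and 18.5 CPM at 3 dpi and 57.3 and 33.3 CPM at 7 dpi. The 3 dpi libraries were the lowest of the 8, and the 7 dpi pair spanned the control pair. It fell at 3 dpi against control (log2 fold change -1.39 ± 0.34, adjusted p = 0.0201, edgeR quasi-likelihood test), and that call was lost without control library 1 (adjusted p = 0.0632), control library 2 (0.0779) or 3 dpi library 1 (0.137) and under library totals (0.0641). At 7 dpi hif1aa was higher than at 3 dpi by 1.69 ± 0.34 under TMM (adjusted p = 0.00205), whereas the difference was -0.0006395 under library totals. In young hearts it was lower than at 7 dpi by TMM (-0.99, adjusted p = 0.0202) and higher by library totals (0.88, adjusted p = 0.0297). The TMM call was also lost without young library 1 (adjusted p = 0.0718), young library 2 (0.0815) or 7 dpi library 1 (0.178).

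Its paralog hif1ab moved least, with a ratio of 1.67 between the highest and lowest group mean. It had 150.5 and 158 CPM in young hearts, 219.95 and 178 CPM in control hearts, 253 and 260.1 CPM at 3 dpi and 228 and 244 CPM at 7 dpi. No comparison among the adult groups passed under TMM. The log2 difference from control was 0.37 at 3 dpi (95% interval -0.11 to 0.84) and 0.24 at 7 dpi (-0.23 to 0.72). Under library totals the first became 0.79 (adjusted p = 0.0362) and the second turned to -1.02 (adjusted p = 0.0041). Young hearts were lower than 3 dpi hearts (-0.74, adjusted p = 0.014 by edgeR), a call lost under library totals (0.0573), without young library 1 (0.115) and without young library 2 (0.0972). They were also lower than 7 dpi hearts (-0.61, adjusted p = 0.0249), which turned to 1.24 under library totals and was lost when any 1 of the 4 libraries compared was left out (adjusted p 0.0559 to 0.158).

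The last HIF alpha gene, hif1al, is listed in RefSeq with Hif-3alpha among its synonyms. It had 183 and 194 CPM in young hearts, 123 and 118 CPM in control hearts, 114 and 36.1 CPM at 3 dpi and 102 and 147 CPM at 7 dpi. Both young libraries were above every adult library, and the 3 dpi pair differed by 3.16-fold. Young hearts were higher than 3 dpi hearts (log2 fold change 1.33, adjusted p = 0.0208, edgeR quasi-likelihood test, 0.0251 under library totals). That value was 2.37 without 3 dpi library 1 and 0.72 without 3 dpi library 2, where the call was lost (adjusted p = 0.0631), as it was without young library 2 (0.061) and with only the 2 groups in the fit (0.0695). At 3 dpi against control the log2 difference was -0.69 (edgeR adjusted p = 0.305) with both 3 dpi libraries. It was -1.74 without 3 dpi library 1 and -0.08 without 3 dpi library 2, so it depended on the pool kept.

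Of the hydroxylases, egln2 was the gene that changed most after injury. It had 11.8 and 15.8 CPM in young hearts, 22.4 and 7.97 CPM in control hearts, 21.1 and 26.2 CPM at 3 dpi and 1.01 and 1.83 CPM at 7 dpi. The 7 dpi libraries held 11 and 22 reads of it and were below every other library. At 7 dpi egln2 fell against control by a log2 fold change of -3.40 ± 0.52 (edgeR quasi-likelihood test, adjusted p = 0.000979) and against 3 dpi by -4.04 ± 0.52 (adjusted p = 0.000171). Under library totals the values were -4.68 and -5.71. The control pair differed by 2.81-fold, and without control library 1 the first value was -2.50 (adjusted p = 0.00613). In young hearts egln2 was higher than at 7 dpi (3.27, adjusted p = 0.000262), and the difference from control, -0.13, had a 95% interval of -1.07 to 0.81.

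In mammals EGLN3 is itself switched on by HIF, which makes it a feedback gene of the pathway. In these hearts egln3 had 32.6 and 55.7 CPM in young hearts, 12.1 and 14.2 CPM in control hearts, 50.7 and 14.4 CPM at 3 dpi and 28.9 and 34.7 CPM at 7 dpi. Control libraries were the lowest, and 3 dpi library 2 lay just above them while 3 dpi library 1 was 3.51-fold higher than its partner. The rise in young hearts against control was 1.75 ± 0.48 (log2, edgeR quasi-likelihood test, adjusted p = 0.00938, 0.0041 under library totals), and it lost its call without young library 2 (0.0599) or control library 1 (0.0773). The adult differences from control did not pass, with 1.31 ± 0.48 at 3 dpi (adjusted p = 0.0932) and 1.27 ± 0.48 at 7 dpi (adjusted p = 0.0581). They passed with DESeq2, at adjusted p = 0.0393 and 0.0239. Under library totals the 3 dpi value was 1.78 (adjusted p = 0.0419) and the 7 dpi value 0.03 (adjusted p = 0.987). The 3 dpi value came to 1.95 without 3 dpi library 2 and 0.14 without 3 dpi library 1.

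The library that was high in egln3 at 3 dpi was high in other genes too. Macrophage markers summed to 3529 CPM in 3 dpi library 1 and 1919 CPM in 3 dpi library 2, against 1136 and 1530 CPM in control hearts, and 13 of 19 were over 2-fold higher in library 1 than in library 2. Cardiomyocyte markers ran the other way, as given above. Of 53 HIF target genes, 14 were over 2-fold higher in 3 dpi library 1 and 1 in library 2. Of all 19330 tested genes, 1365 were over 2-fold higher in library 1 and 1319 in library 2, 13.9% in either direction. The part of this difference between the pools in egln3, hif1al and hif1aa was not tested.

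The gene vhl encodes the part of the ubiquitin ligase that recognises hydroxylated HIF alpha. It had 5.95 and 6.54 CPM in young hearts, 6.88 and 10.5 CPM in control hearts, 5.5 and 5.45 CPM at 3 dpi and 20.2 and 21.7 CPM at 7 dpi. The 7 dpi libraries stood above all others on this scale. At 7 dpi vhl rose against control (log2 fold change 1.26 ± 0.29, edgeR quasi-likelihood test, adjusted p = 0.00678) and against 3 dpi (1.93 ± 0.30, adjusted p = 0.00043). Under library totals these differences were 0.03 (adjusted p = 0.949) and 0.24 (adjusted p = 0.463), so vhl kept pace with the library total at 7 dpi, while most genes fell behind it. Without control library 1 the rise against control was 0.97 (adjusted p = 0.0511). Young hearts were lower than 7 dpi hearts by TMM (-1.74, adjusted p = 0.000369) and differed from them by 0.11 under library totals (adjusted p = 0.722).

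The Vegfa ligands drive endothelial growth through the receptors Kdrl and Kdr, and the 2 genes differed in where they were high. vegfab had 46.5 and 52.4 CPM in young hearts, 193 and 202 CPM in control hearts, 67.2 and 90.01 CPM at 3 dpi and 87.1 and 90.99 CPM at 7 dpi. Control libraries were the highest, young libraries the lowest, and the injured groups overlapped each other. vegfab fell at 3 dpi (log2 fold change -1.33 ± 0.22, edgeR quasi-likelihood test, adjusted p = 0.00348) and at 7 dpi (-1.15 ± 0.22, adjusted p = 0.00247) against control. It was also lower in young hearts than in control hearts (-1.996 ± 0.22, adjusted p = 3.12e-05). The 3 dpi and young calls held under library totals, and all 3 held with any 1 library left out, where the largest adjusted p at 3 dpi was 0.0298. Against 3 dpi, young hearts were lower by -0.67 (adjusted p = 0.0218), a call lost under library totals (0.0659), without young library 1 (0.166), young library 2 (0.0917) or 3 dpi library 2 (0.149). Against 7 dpi they were lower by -0.85 under TMM (adjusted p = 0.00501, 0.0631 without young library 1) and higher by 1.01 under library totals (adjusted p = 0.00136).

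For vegfaa the young libraries were on top. It had 58.9 and 63.4 CPM in young hearts, 32.04 and 45.1 CPM in control hearts, 42.2 and 42.2 CPM at 3 dpi and 29.9 and 24.4 CPM at 7 dpi. The 3 dpi libraries lay within the control pair, and both 7 dpi libraries were below every other library. Young hearts were higher than control hearts (log2 fold change 0.66 ± 0.22, edgeR quasi-likelihood test, adjusted p = 0.0242, 0.000447 under library totals). The TMM call was lost without young library 1 (0.0809), young library 2 (0.126), control library 1 (0.21) or 7 dpi library 2 (0.0501). Young hearts were also higher than 7 dpi hearts (1.17 ± 0.23, adjusted p = 0.000954), and 0.53 higher than 3 dpi hearts without passing (adjusted p = 0.0618). At 3 dpi the difference from control was 0.13 with a 95% interval of -0.36 to 0.62 (adjusted p = 0.753). At 7 dpi it was -0.51 (adjusted p = 0.0961 by edgeR, 0.000219 under library totals). vegfaa was lower at 7 dpi than at 3 dpi (-0.64 ± 0.22, adjusted p = 0.0355), but the call was lost with the replicate number as a block (0.0519), with only the 2 groups in the fit (0.0537), and without either young, either 3 dpi or either 7 dpi library (0.061 to 0.193).

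The ratio of the counts of 2 genes in the same library does not depend on the scaling. The pairs were picked after the counts had been seen, and 2 libraries against 2 cannot give an exact permutation p under 0.333, so the ratios are given as descriptions. Since the genes' transcript lengths were not used, a ratio of 1 does not mean equal numbers of molecules, and only its change between groups is read. The vegfaa to vegfab ratio was 1.27 and 1.21 in young hearts, 0.166 and 0.224 in control hearts, 0.628 and 0.469 at 3 dpi and 0.343 and 0.268 at 7 dpi. No pair of groups overlapped in this ratio, and the mean ratio was 6.42-fold higher in young hearts, 2.82-fold higher at 3 dpi and 1.57-fold higher at 7 dpi than in control hearts. The vegfaa share was thus highest in young hearts, lowest in control hearts, and closer to the young value at 3 dpi than at 7 dpi.

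Within the HIF alpha genes the ratios also differed between groups. The epas1a to epas1b ratio was 1 and 0.948 in young hearts, 0.0652 and 0.091 in control hearts, 0.261 and 0.136 at 3 dpi and 0.0496 and 0.0796 at 7 dpi, so young hearts stood 12.6-fold above control hearts, 3 dpi hearts 2.45-fold above them, and 7 dpi hearts overlapped them. The hif1aa to hif1ab ratio was 0.0375 and 0.0711 at 3 dpi, against 0.176 and 0.195 in control hearts, a 3.59-fold lower mean. In young hearts it was 0.152 and 0.144, below both control libraries. At 7 dpi it was 0.251 and 0.136, on both sides of the control pair. The egln3 to egln2 ratio was 2.77 and 3.53 in young hearts, 0.542 and 1.78 in control hearts, 2.41 and 0.552 at 3 dpi and 28.7 and 19.0 at 7 dpi. Only the 7 dpi and young pairs stood clear of control. The hif1al to hif1ab ratio was 1.22 and 1.23 in young hearts, 0.561 and 0.663 in control hearts, 0.45 and 0.139 at 3 dpi and 0.447 and 0.603 at 7 dpi, with the young pair above every adult library.

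**Figure D3:**
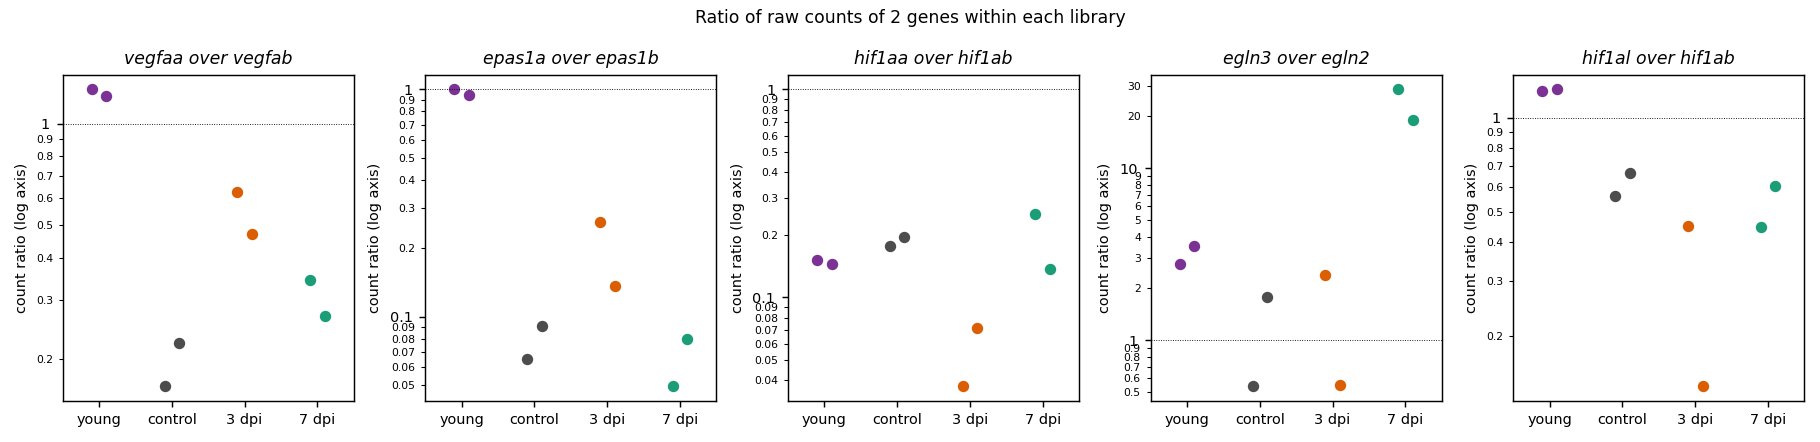
Ratio of raw counts of 2 genes within each library, on a log axis, with 1 point per pool for young, control, 3 dpi and 7 dpi hearts and a dotted line at 1. The vegfaa to vegfab ratio is 1.27 and 1.21 in young hearts and 0.166 and 0.224 in control hearts, and the egln3 to egln2 ratio reaches 28.7 and 19.0 at 7 dpi.

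The rest of the HIF machinery was followed in 22 tested genes: partners, other hydroxylases, ligase subunits and coactivators. At 3 dpi against control 1 rose and 2 fell, 13.6% of the list beside 15.6% of all tested genes, so the count is no result about the list. The median log2 fold change was -0.19 beside 0.00 for all genes (0.002879). Under library totals 2 rose and 1 fell, where 18.2% of all genes rose and 2.78% fell. cited4a, whose mammalian counterpart competes with HIF for the coactivator p300, fell to 52.9 and 35.7 CPM at 3 dpi, against 295 and 235 CPM in control hearts (-2.58 ± 0.27, edgeR quasi-likelihood test, adjusted p = 0.000364). It had 362 and 449 CPM at 7 dpi, above 3 dpi by 3.19 (adjusted p = 3.5e-05), and stood at 36.7 and 34.1 CPM in young hearts. Its 7 dpi level against control depended on the scaling, with 0.61 under TMM (edgeR adjusted p = 0.0782) and -0.65 under library totals (adjusted p = 0.0741). siah1, a ubiquitin ligase gene, fell at 3 dpi (-1.19, adjusted p = 0.0333, 0.106 under library totals). hif1an, the asparagine hydroxylase that blocks HIF from binding p300, rose at 3 dpi (0.68, adjusted p = 0.0421).

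Against control, 6 of the 22 rose and 4 fell at 7 dpi under TMM, beside 38.7% of all genes called, and 0 rose and 10 fell under library totals, where 57.1% of all genes fell. hif1an and tceb2, which encodes the Elongin B subunit of the Vhl ligase, were among the rises that depended on the scaling (1.27 and 1.36 under TMM, 0.02 and 0.13 under library totals). The symbol tceb2 has 2 tested entries, and the values given here and below are of the one with more counts. The other entry did not pass at 7 dpi against control (0.95, edgeR adjusted p = 0.064). ep300a, a p300 coactivator gene, fell (-1.64, edgeR adjusted p = 0.00141). In young hearts against control 2 were higher and 6 lower under TMM, beside 60.2% of all tested genes called in either direction. Under library totals 7 were higher and 2 lower, where 44.7% of all genes were higher and 17.5% lower. The balance thus turned with the scaling, and 2 higher and 2 lower held under both. The largest difference was hif1al2, a further HIF alpha-like gene, with 0.706 and 0.58 CPM in young hearts, 106 and 176 CPM in control hearts, 138 and 77.5 CPM at 3 dpi and 195 and 310.0 CPM at 7 dpi. Young hearts were lower than control hearts by -7.77 ± 0.48 (adjusted p = 1.16e-06, edgeR).

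At 7 dpi against 3 dpi 10 of the 22 machinery genes rose and 4 fell, beside 50.9% of all tested genes called. Under library totals 1 rose and 15 fell, where 4.47% of all genes rose and 67.6% fell. The rise that held under both was cited4a. tceb2 rose by 1.74 under TMM only, and ep300a fell (-1.74 by TMM). In young hearts 3 were higher and 3 lower than at 3 dpi, beside 54.1% of all genes called. Under library totals 5 were higher and 2 lower, where 32.0% of all genes were higher and 21.4% lower. By TMM siah1 was higher (1.33, edgeR adjusted p = 0.00585) and cul2, the scaffold gene of the Vhl ligase, lower (-1.40, adjusted p = 0.00588). Against 7 dpi 4 were higher and 10 lower under TMM, beside 68.5% of all genes called. Under library totals 16 were higher and 2 lower, where 71.1% of all genes were higher and 9.46% lower. cited4a was lower under both scalings (-3.52 by TMM). hif1al2 was lower than at 3 dpi by -7.38 and than at 7 dpi by -8.61. The hydroxylase gene egln1b was lower in young hearts than at 7 dpi by -2.31 under TMM (adjusted p = 2.74e-05) and by -0.45 under library totals (adjusted p = 0.114).

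Genes that HIF switches on in mammals were tested as a list of 53. At 3 dpi against control 13 rose and 6 fell, 35.8% of the list beside 15.6% of all tested genes, with a median log2 fold change of 0.17 beside 0.00 (0.002879). Under library totals 17 rose and 4 fell, where 18.2% of all genes rose and 2.78% fell. eno1b, a glycolytic enolase gene, rose by 2.81 (adjusted p = 0.000324, edgeR quasi-likelihood test). bnip3, a mitophagy receptor gene, fell to 16.7 and 19.6 CPM at 3 dpi, against 87.4 and 86.9 CPM in control hearts (-2.26, adjusted p = 0.000225). The list therefore moved in both directions, and the highest expressed target, the enolase gene eno1a, had 846 and 764 CPM at 3 dpi and 859 and 962 CPM in control hearts. Of the macrophage markers, 16 of 19 rose and 0 fell at 3 dpi. Smooth muscle markers had 8 of 15 higher and 1 lower, and epicardial and fibroblast markers 4 of 16 higher and 0 lower. Endothelial markers had 2 of 20 higher and 2 lower, cardiomyocyte markers 1 of 11 higher and 1 lower, and neutrophil markers 2 of 10 higher and 3 lower. Erythroid markers had 0 of 16 higher and 2 lower, and of 10 lymphocyte markers 0 passed. The part of these markers in the result was not tested.

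Against control, 13 targets rose and 10 fell at 7 dpi, beside 38.7% of all tested genes called. Under library totals 1 rose and 32 fell, where 3.77% of all genes rose and 57.1% fell. The TMM falls included tfr1a, a transferrin receptor gene (-3.003, edgeR adjusted p = 0.00102), the glucose transporter gene slc2a1b (-2.25, adjusted p = 0.0011) and the mitophagy gene bnip3la (-2.41, adjusted p = 0.00142). tfr1a is also in the list of erythroid markers, whose part in this fall was not tested. Relative to 3 dpi, 15 rose and 20 fell at 7 dpi, beside 50.9% of all tested genes called. Under library totals 3 rose and 40 fell, where 4.47% of all genes rose and 67.6% fell. The falls included pfkfb3, a glycolytic regulator gene (-2.35, adjusted p = 4e-05), while bnip3 rose (2.42, adjusted p = 4e-05). In young hearts against control 16 were higher and 22 lower under TMM, beside 60.2% of all genes called. Under library totals 22 were higher and 13 lower, where 44.7% of all genes were higher and 17.5% lower. This balance thus also turned with the scaling, and 16 higher and 13 lower held under both. epoa, an erythropoietin gene, was lower (5.87 and 7.67 CPM in young hearts, 120.0 and 143 CPM in control hearts, -4.28 ± 0.26, adjusted p = 1.01e-06 by edgeR). So were bnip3 (-3.28) and the heme oxygenase gene hmox1a (-4.39). Against 3 dpi, young hearts had 9 targets higher and 21 lower, beside 54.1% of all genes called. Under library totals 11 were higher and 19 lower, where 32.0% of all genes were higher and 21.4% lower. The lower ones by TMM included hmox1a (-6.16), epoa (-3.47) and the chemokine gene cxcl12a (-2.91). The part of the macrophage markers, lower in young hearts as given above, was not tested in these differences. Against 7 dpi, 21 were higher and 24 lower under TMM, beside 68.5% of all genes called. Under library totals 31 were higher and 8 lower, where 71.1% of all genes were higher and 9.46% lower. Under both scalings 21 were higher and 8 lower, and epoa, hmox1a and bnip3 were among the 8.

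Of 24 tested genes for other Vegf ligands, receptors and vessel signals, 2 rose and 3 fell at 3 dpi against control, 20.8% beside 15.6% of all genes. Under library totals 4 rose and 0 fell, where 18.2% of all genes rose and 2.78% fell, so none of the falls held. vegfc, the lymphatic growth factor gene, rose (1.29 ± 0.35, edgeR adjusted p = 0.0332), as did the endothelial tip cell gene esm1 (2.27, adjusted p = 0.0188). The level of esm1 was low, with means of 2.78 CPM at 3 dpi and 0.559 CPM in control hearts. The apelin receptor gene aplnrb fell (-1.30, adjusted p = 0.0147), but not under library totals (0.0576). Against control, 2 rose and 9 fell at 7 dpi under TMM, beside 38.7% of all genes called, and 0 rose and 17 fell under library totals, where 57.1% of all genes fell. The TMM falls included the Vegf receptor gene kdr, at 11.6 and 11.8 CPM at 7 dpi against 116 and 53.5 CPM in control hearts (-2.86 ± 0.34, adjusted p = 0.00035), the Notch ligand gene dll4 (-2.14) and the apelin gene apln (-2.29). Relative to 3 dpi, 7 rose and 10 fell at 7 dpi, beside 50.9% of all genes called. Under library totals 0 rose and 19 fell, where 67.6% of all genes fell. None of the rises, which included tek (1.57 by TMM, -0.12 under library totals) and aplnrb (2.005 and 0.33), held under both scalings. kdr fell relative to 3 dpi (-3.27 by TMM). In young hearts 5 were higher and 11 lower than in control hearts under TMM, beside 60.2% of all genes called. Under library totals 6 were higher and 7 lower, where 44.7% of all genes were higher and 17.5% lower. Under both scalings 5 were higher and 7 lower. The angiopoietin receptor gene tek was lower (-3.94 ± 0.24, adjusted p = 1.01e-06), as were the Vegf receptor genes flt1 (-3.40) and kdrl (-2.27), the last at 59.3 and 71.6 CPM in young hearts against 351 and 278 CPM in control hearts. Endothelial markers were lower in the same comparison, 14 of 20 lower and 3 higher under TMM and 10 lower and 3 higher under library totals. That list shares 4 genes with this one, kdrl, tek, flt1 and tie1, so the 2 lists partly restate each other, and the part of the endothelial markers in the result was not tested. The semaphorin and Vegf co-receptor gene nrp2a was higher in young hearts than at 3 dpi (2.78, adjusted p = 4.99e-05 by edgeR) and at 7 dpi (3.43, adjusted p = 1.04e-05). tek and flt1 were lower in young hearts than at 3 dpi (-3.18 and -2.65) and at 7 dpi (-4.75 and -3.68), under both scalings.

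**Figure D4:**
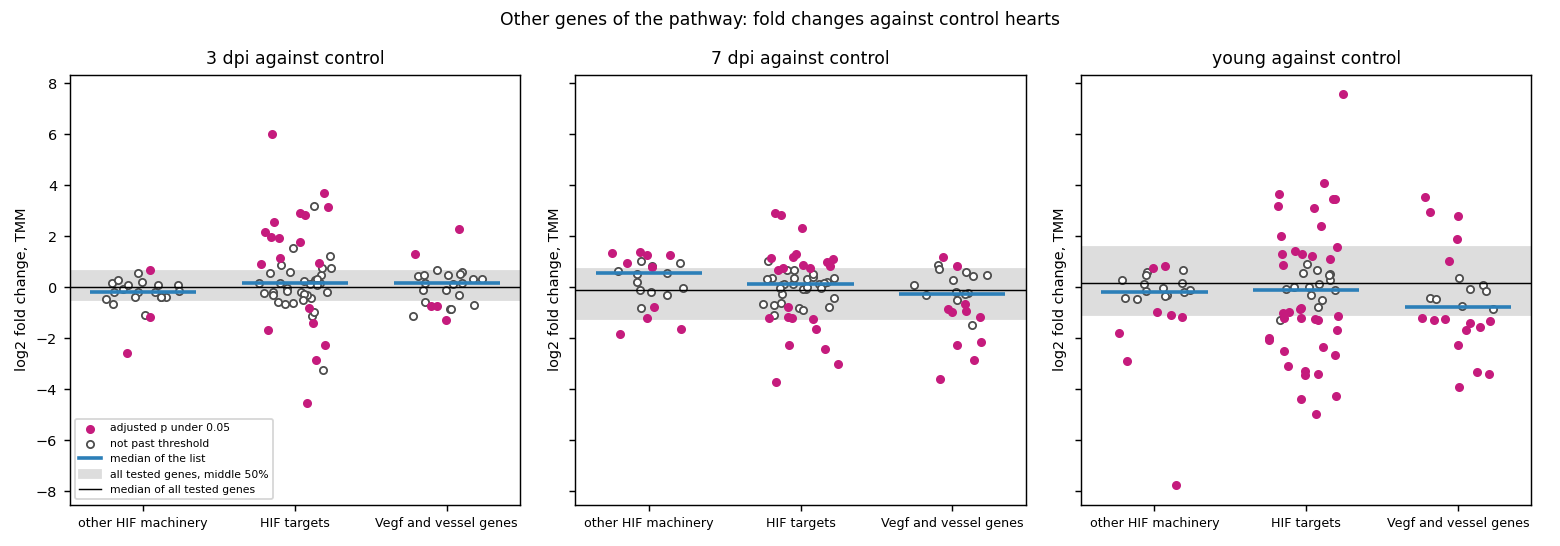
Log2 fold changes against control, under TMM, of the tested genes of 3 lists (22 of other HIF machinery, 53 HIF targets, 24 Vegf and vessel genes), filled where the adjusted p is under 0.05, with the list's median as a blue bar and the middle 50% of all tested genes as a grey band. In young hearts the lowest point is hif1al2 at -7.77.

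**Figure D5:**
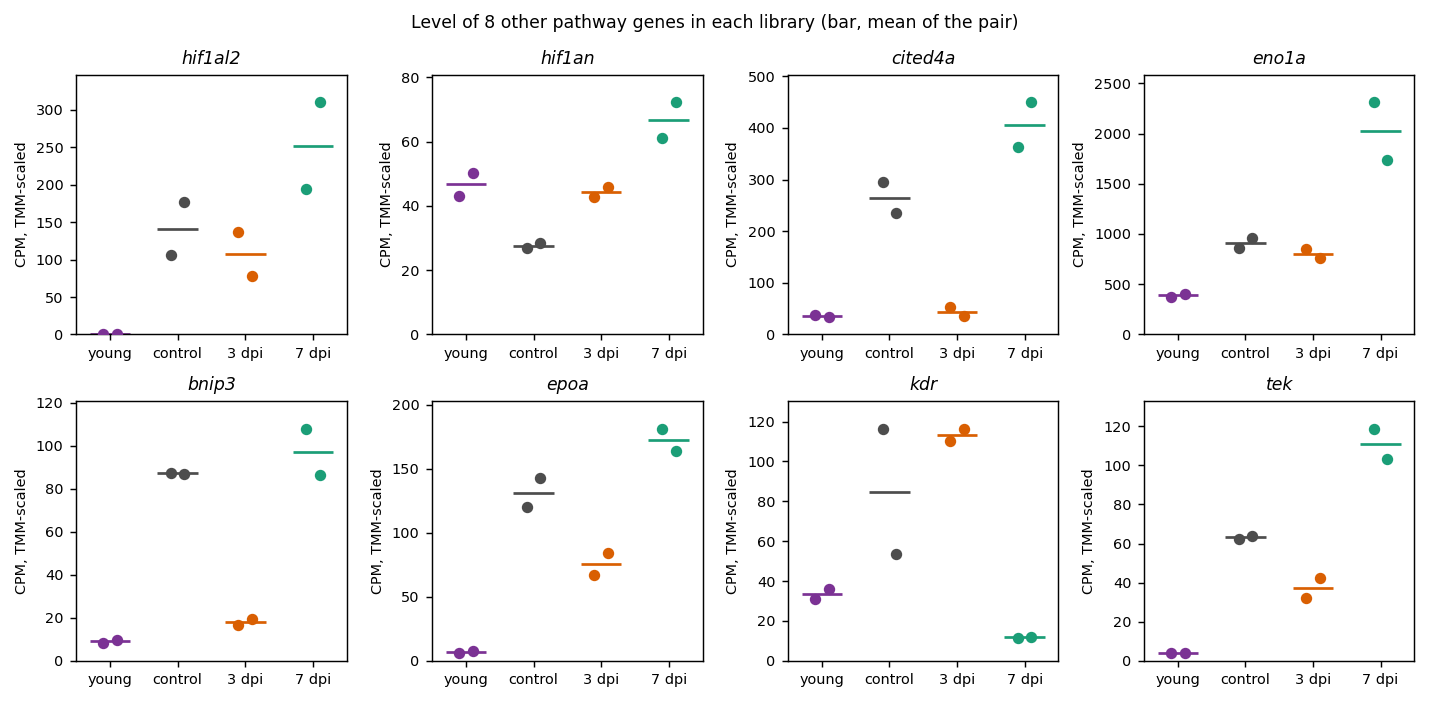
Level of 8 other pathway genes in each library, in TMM-scaled CPM, with 1 point per pool and a bar at the mean of the pair for young, control, 3 dpi and 7 dpi hearts. cited4a stands at 52.9 and 35.7 CPM at 3 dpi and at 295 and 235 CPM in control hearts, and hif1al2 is at 0.706 and 0.58 CPM in young hearts.

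The likeness of patterns was measured as Pearson's r of log2 CPM over the 8 libraries, which share groups and scaling, and it is a description without a test. Among the 10 genes, vegfab and epas1b were most alike (r = 0.856), both high in control hearts and low in young hearts. hif1aa was most like vhl (0.713), hif1ab most like epas1b (0.717), epas1a and egln2 most like each other (0.70), and hif1al and egln3 most like each other at only 0.537. vegfaa was most like egln2 (0.594). Under library totals 5 of the 10 genes had another nearest gene, so these orders depend on the scaling. Among 9866 named genes at 10 CPM or more in some group, those nearest to vegfab were rsrp1 (0.993), cbfa2t3 (0.99), fibpb (0.978), ncor1 (0.973) and ubr3 (0.972). Those nearest to vegfaa were tmem181 (0.979), ccnc (0.976), tmem144a (0.973), cpt1cb (0.97) and ankrd22 (0.969).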

How the data were processed

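Total RNA of pooled zebrafish hearts was extracted with TRIzol and sequenced on an Illumina HiSeq instrument, per the labels' protocols. Raw read counts per gene were deposited by the authors, made with TopHat2 2.0.13 and HTSeq on GRCz10, per the submitters' processing notes. The annotation release and strand setting of the counting were not given in the sources used here, so reads of overlapping genes may be shared. A deposited table of RPM values holds the same reads for the adult libraries, scaled by the authors to library totals. It has no young columns, so the young counts were not checked against it. The table gave the symbols of 23350 genes, matched the adult counts within a relative tolerance of 1e-04 for 100% of them, and was used for names only. A gene names table named 4026 more, and 4577 have no symbol. The labels put the control replicates under numbers that the RPM table reverses, and those of the count table were used.

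The analysis ran in R 4.3.3, with edgeR 4.0.16: filterByExpr (19330 genes), TMM, 1 coefficient per group over all 8 libraries, and quasi-likelihood F tests on 4 residual degrees of freedom. p-values were adjusted over all tested genes by the Benjamini-Hochberg method, with a threshold of 0.05. Standard errors were back-calculated from the test statistic. The test was checked on simulated data. Alternatives were DESeq2 1.42.0, scaling by library totals, TMM without mitochondrially encoded genes, other filters, the 2 groups compared only, the replicate number as a block, and leaving out each library. Depth was 10868019 to 26628897 counts per library.

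The members and the gene lists were chosen with earlier results of these data known. Named are the 10 members, per comparison the 3 genes of smallest p in each of the lists of HIF machinery, HIF targets and vessel genes, each list's highest expressed gene, the 5 genes most like vegfaa and vegfab, each member's most similar member, and vmhc. For 1 gene that this rule names, the result is not reported here. The labels say that the libraries were sequenced together. Their run prefixes differ: control and 3 dpi share 1 prefix, and 7 dpi and young have 1 each, so outside the comparison of 3 dpi with control the run cannot be told apart from the group.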

Additional observations from a re-analysis of the deposited data

Results flagged for a closer look

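The direct comparison of 7 dpi with 3 dpi tests whether the 2 times differ from control by different amounts, since control cancels out. The run prefix also differs between the 2 times and does not cancel out, so time and run cannot be told apart. By edgeR's quasi-likelihood test 5 of the 10 genes passed, as did 50.9% of all tested genes. The log2 fold changes were 1.69 for hif1aa, -1.77 for epas1a, -4.04 for egln2, 1.93 for vhl and -0.64 for vegfaa. With 1 library left out at a time, all 5 kept their direction. The vegfaa call, as given above, was lost with the replicate block, with only the 2 groups in the fit and with most single libraries left out. The values then ranged over 1.25 to 2.24 for hif1aa, -2.07 to -1.53 for epas1a and -4.56 to -3.69 for egln2. For vhl they ranged over 1.86 to 1.98 and for vegfaa over -0.79 to -0.52. Under library totals the log2 fold changes of hif1aa and vhl came to -0.0006395 and 0.24, and that of vegfaa to -2.34.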

How the results depend on the processing

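For the 60 fold changes (10 genes, 6 comparisons), direction and call stayed the same for all 60 under TMM without mitochondrially encoded genes and with at least 10 counts in at least 2 libraries, for 57 with DESeq2 (3 passed newly) and for 52 with no filter on low counts (7 passed newly, 1 was lost). Scaling by library totals kept 29, with 12 passing newly and 6 lost. It reversed 13: hif1aa at -0.97, hif1ab at -1.02 and hif1al at -1.21 for 7 dpi against control; hif1aa at -0.0006395, hif1al at -0.98 and vegfab at -1.51 for 7 dpi against 3 dpi; hif1ab at 0.22, egln2 at 0.43 and vhl at 0.14 for young against control; hif1aa at 0.88, hif1ab at 1.24, vhl at 0.11 and vegfab at 1.01 for young against 7 dpi. It called 8 members at 7 dpi against control, where TMM called 5, and 11765 genes, where TMM called 7486. With only the 2 groups in the fit, egln3 at 7 dpi against 3 dpi was 0.001683, where it was -0.03 over all 8 libraries, and 1823 genes were called at 3 dpi against control, where the fit of all libraries called 3015. The 3 dpi and control libraries share 1 run prefix, so that fit is also the one within a run, an alternative chosen after seeing the data.

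The replicate block lost 1 call, vegfaa at 7 dpi against 3 dpi (-0.63, adjusted p = 0.0519), and kept direction and call in the other 59 fold changes. Samples with the same number did not deviate together (correlations of -0.14 to 0.0679 over 6 pairs of groups), so the numbers do not pair them.

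Leaving out 1 library at a time, the members called ranged over 2 to 7 for young against 3 dpi, 4 to 8 for young against 7 dpi and 3 to 7 for young against control. All genes called ranged over 6792 to 11058 for young against 3 dpi, 4093 to 7750 for 7 dpi against control and 985 to 3287 for 3 dpi against control, with 985 without 3 dpi library 1 and 4093 without control library 1. The log2 fold changes that changed sign ranged over -0.15 to 0.40 for vegfaa at 3 dpi against control, -0.16 to 0.61 for hif1aa and -0.28 to 0.27 for hif1al at 7 dpi against control, -0.62 to 0.19 for epas1b, -0.68 to 1.123 for egln3 and -0.0314 to 0.40 for vegfab at 7 dpi against 3 dpi, -0.70 to 0.71 for egln2 in young against control, -0.20 to 1.59 for egln3 in young against 3 dpi and -0.13 to 0.42 for epas1a in young against 7 dpi. None of these was called with all libraries in. The cause was not tested. With a library left out, the lone sample of its group is assumed to vary like the others. Low counts limit egln2 at 7 dpi (11 and 22 reads), hif1al2 in young hearts and esm1 in control hearts.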
